A study of Mus musculus with 8 samples.

Results

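The carriers of 7 solute carrier families, which hold many of the plasma membrane and lysosomal amino acid transporters of the mouse, were examined in colon RNA-seq data. Members were taken by gene symbol, as every row of the deposited expression table named Slc1a, Slc3a, Slc6a, Slc7a, Slc36a, Slc38a or Slc43a with a number, which gave 60 of the 18262 listed genes. The name pattern itself uses no expression value. The pattern also took in Slc7a6os, which is named for its place opposite Slc7a6 and is no transporter. All samples were colon tissue of wild-type mice in which colitis had been induced with dextran sulfate sodium (DSS), a polymer that damages the colonic epithelium. The DSS group had 4 libraries, with replicate numbers 1, 2, 4 and 5. The DSS + GAA group had 4 libraries with the same numbers, from DSS mice additionally treated with ganoderic acid A (GAA, from Ganoderma fungi) at 20 mg/kg. The treatment labels of those 4 libraries read 20, 21, 22 and 23 mg/kg, whereas the titles and the design text give 20 for all. No mice without DSS were analysed here, so the levels below show how colitic colon differed with GAA, not how it differed from healthy colon. The labels do not say that the libraries of a group came from separate animals, so p-values measure the spread between these libraries, which may be technical.

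Amino acids cross membranes on carriers that differ in substrate, ion coupling and place in the cell. The Slc1 family carries acidic and small neutral amino acids, the Slc6 family couples neutral amino acids, neurotransmitters, taurine and creatine to sodium and chloride, and the Slc38 family carries glutamine and other small neutral amino acids with sodium. Slc7 light chains work mostly as exchangers bound to an Slc3 heavy chain, which brings them to the cell surface. Slc36 carriers move small amino acids with protons, many Slc38 and Slc36 members also sit on lysosomes, and Slc43 members include facilitative carriers of large neutral amino acids. In the gut these carriers take up dietary amino acids, feed epithelial and immune cells, and clear neurotransmitters.

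Expression was given as TPM, a transcript's length-normalised share of a library that adds up to 1000000, and such values do not show the number of reads, so depth is unknown. A gene was tested where at least 4 of the 8 libraries reached 1 TPM, which kept 14217 genes. Fold changes are DSS + GAA over DSS on the log2(TPM + 1) scale, which understates changes of low genes, and a gene passed at an adjusted limma p under 0.05. The median log2 change of all tested genes was -0.25, and 3 ways of rescaling the libraries moved it to between -0.01 and 0.05. The summed colonocyte markers ranged over 8782 to 12560 TPM without GAA and over 11460 to 18170 TPM with it. These sums show that the listed markers were present and are no test of the tissue label. DSS + GAA replicate 1 was the lowest library of its group for Slc6a14, Slc36a1, Slc1a5 and Slc6a7. For other members, such as Slc3a2, Slc6a15, Slc7a6, Slc7a14, Slc36a4 and Slc43a3, it was the highest of its group.

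Most of the family members that passed were lower in the GAA-treated colons, while 4 were higher. Of the 39 members tested, 19 fell, 4 rose and 16 did not pass. The share that passed was 59.0%, beside 34.1% of all tested genes. The 4 risers of 39 compare with 5.96% of all tested genes and the 19 fallers of 39 with 28.2%. Over all tested genes 4006 fell and 847 rose, so most genes that passed were lower there too. The 4 higher members were Slc6a4, Slc6a8, Slc7a9 and Slc36a1. The counts include carriers of other substrates, among them Slc6a4 for serotonin, Slc6a8 for creatine and the faller Slc43a3 for purine bases. The median log2 change over the tested members was -0.55, a difference of -0.30 from all tested genes, and the difference was between -0.40 and -0.28 under the 3 rescalings. By size, 3 members rose and 10 fell by at least 1 on the log2 scale, beside 2.00% and 9.86% of all tested genes. In 23 members the libraries of the groups did not overlap, 4 higher and 19 lower with GAA, against 5.31% and 27.6% of all tested genes, or 32.9% in either direction. Without Slc7a6os, 59 members remained, 38 of them tested, the same 23 passed, and 18 were lower without overlap. Slc38a4 entered the test through its DSS libraries alone, which by itself sets its groups apart. Without Slc38a4, 18 of 38 members fell, 9 of them by at least 1 on the log2 scale, and the median was -0.52. Members lower without overlap were then also 18. Slc38a4 is among the fallers counted below under the 3 rescalings and without DSS + GAA replicate 1. It was not tested without DSS replicate 1. The number that fell was sensitive to scaling and to 1 library. Under trimmed mean scaling 11 fell and 5 rose, beside 12.8% and 12.7% of all genes. Under quantile normalization 12 fell and 5 rose, beside 11.3% and 11.8%, and under median centring 11 fell and 5 rose, beside 9.20% and 15.2%. Without DSS replicate 1, 10 fell and 3 rose, beside 12.0% and 2.59%, and without DSS + GAA replicate 1, 21 fell and 6 rose, beside 31.4% and 9.05%.

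**Figure D1:**
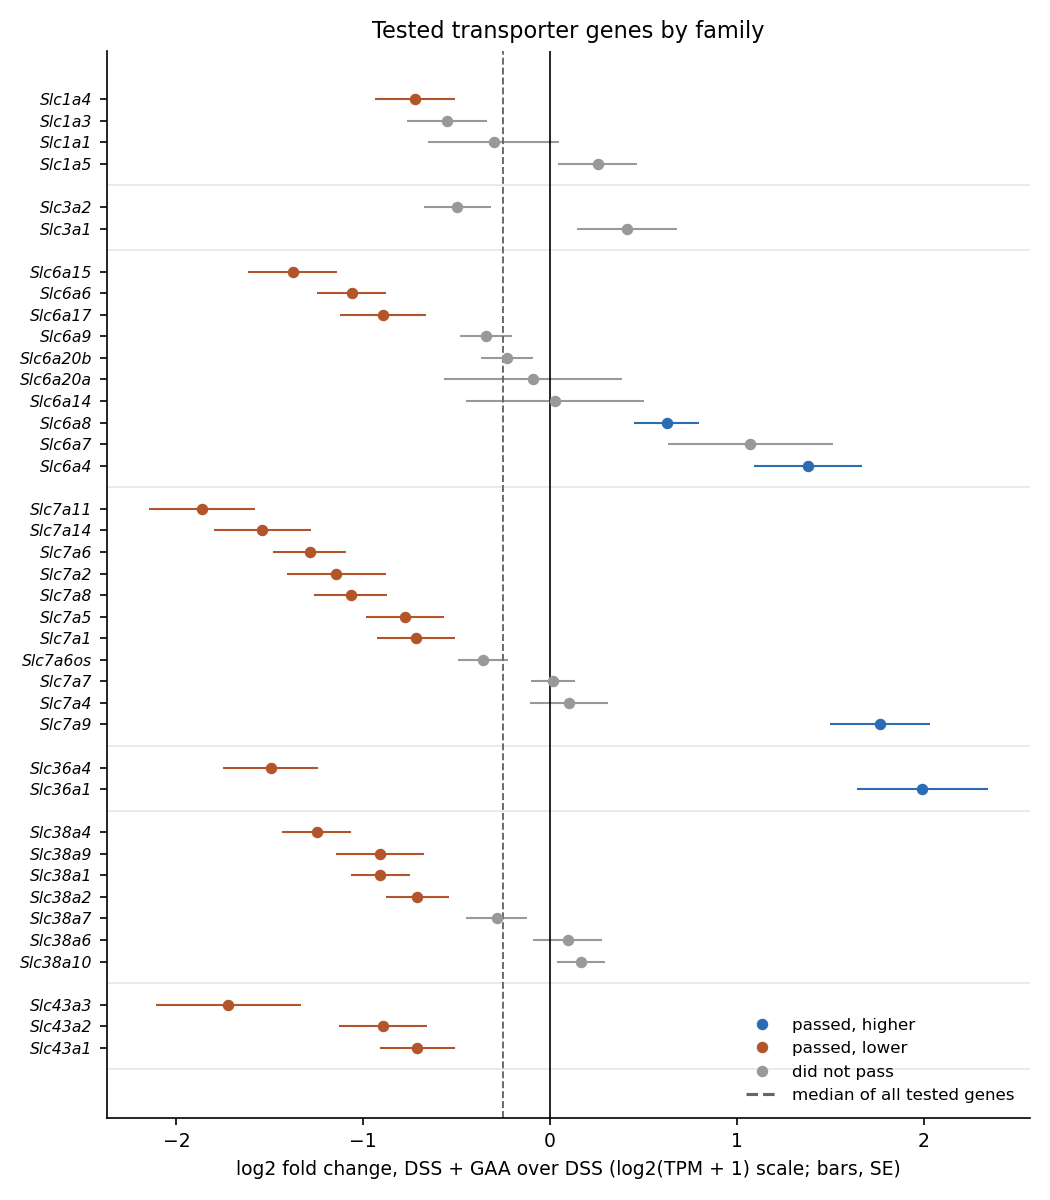
Fold change of the 39 tested members, grouped by family, with Slc7a6os among them. The horizontal axis is the log2(TPM + 1) difference of DSS + GAA minus DSS, bars are standard errors of the limma fit, colours mark passed and not passed, and the dashed line is the median of all tested genes at -0.25. The Slc36 family holds both a riser, Slc36a1, and a faller, Slc36a4, and all 3 Slc43 members fell.

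The families were small, and their counts stand beside 28.2% of all tested genes lower and 5.96% higher. Fallers were found in 6 of the 7 families. In Slc7, 7 of 11 tested members fell and 1 rose, or 7 of 10 fell without Slc7a6os. In Slc38, 4 of 7 fell, or 3 of 6 without Slc38a4. In Slc6, 3 of 10 fell and 2 rose, and in Slc1 1 of 4 fell, both near the share of all genes that fell. All 3 members of Slc43 fell, Slc36 had 1 riser and 1 faller, and of the 2 Slc3 members 0 passed limma's test, with 1 (Slc3a2) at an unadjusted p under 0.05. Without DSS replicate 1, the number that fell was 1 in Slc38, 1 in Slc43 and 0 in Slc1 by limma's adjusted p. Slc38a4 was not tested in that fit, as too few libraries were left at 1 TPM. Under trimmed mean scaling the number that fell was 2, 1 and 0 in these families. The median log2 change was 0.25 in Slc36, -0.90 in Slc43, -0.78 in Slc7 (-0.92 without Slc7a6os) and -0.71 in Slc38. It was -0.43 in Slc1, -0.16 in Slc6 and -0.04 in Slc3.

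Family sums weigh the abundant members most. The Slc36 sum was 47.0 ± 5.68 TPM in DSS and 134 ± 58.3 TPM in DSS + GAA (SD, n = 4 each), and the ranges of 39.4 to 51.9 and 62.9 to 197 did not overlap. The Slc38 sum was 259 ± 35.2 TPM in DSS and 168 ± 17.1 TPM in DSS + GAA, again without overlap. The Slc43 sum was 131 ± 35.2 TPM in DSS and 45.1 ± 25.6 TPM in DSS + GAA, with all DSS libraries above all DSS + GAA libraries. The Slc7 sum without Slc7a6os was 116 ± 4.94 TPM in DSS and 105 ± 5.30 TPM in DSS + GAA, a small difference without overlap. The Slc6 and Slc1 sums had group ranges that overlapped, as DSS + GAA ran from 558 to 1506 TPM for Slc6 and from 82.5 to 184 TPM for Slc1. Over all members but Slc7a6os, the sum was 1644 ± 133 TPM in DSS and 1731 ± 521 TPM in DSS + GAA, so the total did not separate the groups although most members that passed had fallen.

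**Figure D2:**
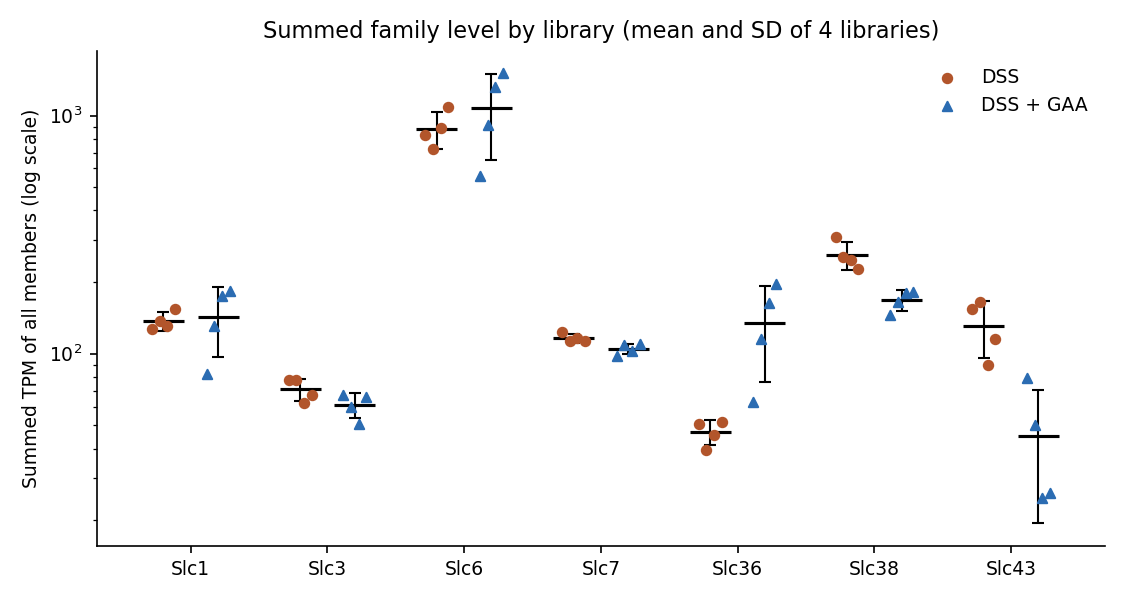
Summed TPM of each family in each library, with Slc7a6os left out of Slc7. Points are the 4 DSS and 4 DSS + GAA libraries, on a log axis, and lines with bars are group means and SD. The Slc7, Slc36, Slc38 and Slc43 groups do not overlap, and the Slc6 and Slc1 sums of DSS + GAA replicate 1 lie below those of every other library.

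Slc6a14 (chromosome X, 21714896 to 21742355, plus strand), a broad carrier of neutral and cationic amino acids, was the most abundant member. It held 30.0% ± 5.84 of the summed TPM of all members but Slc7a6os in DSS and 31.6% ± 11.6 in DSS + GAA. Its level was 457, 351, 525 and 659 TPM in DSS replicates 1, 2, 4 and 5 and 175, 460, 846 and 878 TPM in DSS + GAA. DSS + GAA replicate 1 was below all DSS libraries and replicates 4 and 5 were above them. Its log2 change was 0.03 ± 0.47 (SE), with an adjusted limma p of 0.97. Slc6a8 (chromosome X, 73673150 to 73682502, plus strand), the creatine transporter, chosen for its level after its values were seen, was next, with 193, 229, 224 and 269 TPM in DSS and 286, 333, 339 and 471 TPM in DSS + GAA. Every DSS + GAA library lay above every DSS library. The mean was 1.56-fold higher, with a log2 change of 0.63 ± 0.17 and an adjusted limma p of 0.0238, which rose to as much as 0.0795 in 4 of the fits that left out a library (DSS replicate 1, 2 or 4, or DSS + GAA replicate 2).

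The proton-coupled carrier Slc36a1, on mouse chromosome 11 at 55204350 to 55236330 (GRCm38, plus strand), had the largest rise among the tested members. It moves glycine, alanine and proline from the gut lumen and from lysosomes. Its level was 28.4, 22.0, 31.2 and 32.8 TPM in DSS and 53.5, 109, 159 and 193 TPM in DSS + GAA. The groups were far apart, and the DSS + GAA libraries differed among themselves more than the DSS libraries, with replicate 1 lowest. The mean was 4.49-fold higher, with a log2 change of 1.99 ± 0.35 and an adjusted limma p of 0.00639. Its share of the summed TPM of all members but Slc7a6os was 1.73% ± 0.218 in DSS and 7.07% ± 1.57 in DSS + GAA. The promoter window is shown because Slc36a1 carries an E-box, the letters CACGTG, 31 to 26 bases before its annotated start. It lies at chr11:55204090-55204339 on the plus strand, from RefSeq on GRCm38.p6, and the capitals mark the E-box.
Slc36a1: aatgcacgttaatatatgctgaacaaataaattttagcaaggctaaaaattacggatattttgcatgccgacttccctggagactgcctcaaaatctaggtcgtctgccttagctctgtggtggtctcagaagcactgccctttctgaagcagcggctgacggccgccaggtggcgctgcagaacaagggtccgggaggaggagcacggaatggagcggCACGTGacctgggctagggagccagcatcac
The E-box is a general bHLH-factor motif, bound among others by lysosomal gene regulators, and 6.02% of 32851 mouse promoter windows of this length hold it on at least 1 strand. It was in 8 of the 66 windows of the 45 members with a window, each of a different member, of which 2 fell, 1 rose, and the other five did not pass or were not tested.

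Slc36a4 (chromosome 9, 15709738 to 15743361, plus strand), a lysosomal and plasma membrane carrier of proline and tryptophan, moved the other way from Slc36a1. Its level was 21.0, 16.4, 13.4 and 18.3 TPM in DSS and 9.17, 5.98, 3.96 and 3.81 TPM in DSS + GAA. All DSS + GAA libraries were below all DSS libraries. Its log2 change was -1.49 ± 0.25, with an adjusted limma p of 0.00601. Slc36a2, a glycine and proline carrier that lies 19.3 kb from Slc36a1, was under the test's filter, at 1.42, 1.05, 0.819 and 0.641 TPM in DSS and 0.148, 0.281, 0.351 and 0.152 TPM in DSS + GAA. All 4 DSS + GAA libraries were lower. The exact two-sided permutation p was 0.0286, the smallest that 70 assignments of the 8 libraries can give. It is unadjusted, and any groups of 4 that do not overlap give it, so it adds nothing to that lack of overlap. Of all 18262 listed genes, 24.8% lay lower in DSS + GAA without overlap. Slc36a3 was below 0.3 TPM in every library.

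The heavy chains of the heteromeric carriers did not pass with all libraries, while several of their light chains did. Slc3a2 (4F2hc, chromosome 19, 8706882 to 8723369, minus strand) serves the light chains Slc7a5, Slc7a6, Slc7a7, Slc7a8, Slc7a10 and Slc7a11. It was at 62.3, 65.6, 49.0 and 53.4 TPM in DSS and 54.6, 42.96, 34.9 and 31.8 TPM in DSS + GAA. The groups overlapped at DSS + GAA replicate 1. The log2 change was -0.50 ± 0.18 with an adjusted limma p of 0.0577, and Slc3a2 passed as lower in 4 of 20 alternatives, namely without DSS + GAA replicate 1, without haemoglobin and mitochondrial genes, with a replicate block and with array quality weights. Slc3a1 (rBAT), the heavy chain of the cystine carrier Slc7a9, was at 15.0, 11.9, 13.4 and 13.9 TPM in DSS and 12.2, 16.7, 16.01 and 33.9 TPM in DSS + GAA. Only DSS + GAA replicate 5 stood well above the rest, and the adjusted limma p was 0.254. An exon of Prepl on the opposite strand overlaps 601 bases of Slc3a1 exons, and the strand of the reads is not stated.

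Slc7a9 (b0,+AT, chromosome 7, 35448796 to 35466036, plus strand) takes up cystine and cationic amino acids at the apical surface of epithelium. Its level was 8.62, 9.26, 22.0 and 13.4 TPM in DSS and 36.1, 49.4, 42.8 and 52.8 TPM in DSS + GAA. All DSS + GAA libraries were higher, and DSS replicate 4 was the highest DSS library. The mean was 3.40-fold higher, with a log2 change of 1.77 ± 0.27 and an adjusted limma p of 0.00531. Slc7a9 exceeded its heavy chain in every DSS + GAA library: the ratio Slc7a9 over Slc3a1 was 0.575, 0.775, 1.64 and 0.967 in DSS and 2.96, 2.96, 2.67 and 1.56 in DSS + GAA. The ranges overlapped between DSS replicate 4 and DSS + GAA replicate 5.

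Slc7a11 (xCT, chromosome 3, 49892526 to 50443614, minus strand) exchanges cystine for glutamate and had the most negative fitted change on the log2(TPM + 1) scale among the tested members. Its level was 12.6, 10.5, 5.38 and 4.96 TPM in DSS and 1.82, 1.31, 1.58 and 1.02 TPM in DSS + GAA. DSS replicates 1 and 2 were highest, and the lowest DSS library was still above all DSS + GAA libraries. The mean was 5.83-fold lower, with a log2 change of -1.86 ± 0.29, which is -1.61 relative to the median of all tested genes, and an adjusted limma p of 0.00531. The promoter window is shown because it holds a pair of matches to the C/EBP-ATF response element, the letters TGATGNAA, to which ATF4 heterodimers bind. The capitals mark the matches, at 66 to 59 bases before the annotated start, as written, and at 47 to 40 bases, on the opposite strand. The window is chr3:50443614-50443863 on the minus strand, from RefSeq on GRCm38.p6.
Slc7a11: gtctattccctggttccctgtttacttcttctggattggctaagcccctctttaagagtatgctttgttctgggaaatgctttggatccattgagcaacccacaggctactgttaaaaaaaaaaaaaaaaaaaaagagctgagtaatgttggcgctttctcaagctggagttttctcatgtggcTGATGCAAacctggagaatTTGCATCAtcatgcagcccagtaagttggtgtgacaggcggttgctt
Of all 32851 windows, 3.45% hold at least 1 match and 0.0396%, or 13 windows, hold at least a pair. Of the 66 windows of members, 4 held a match, from Slc7a11, Slc7a7 and Slc6a21, and of these only Slc7a11 fell. Slc7a7 did not pass and Slc6a21 was not tested.

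**Figure D3:**
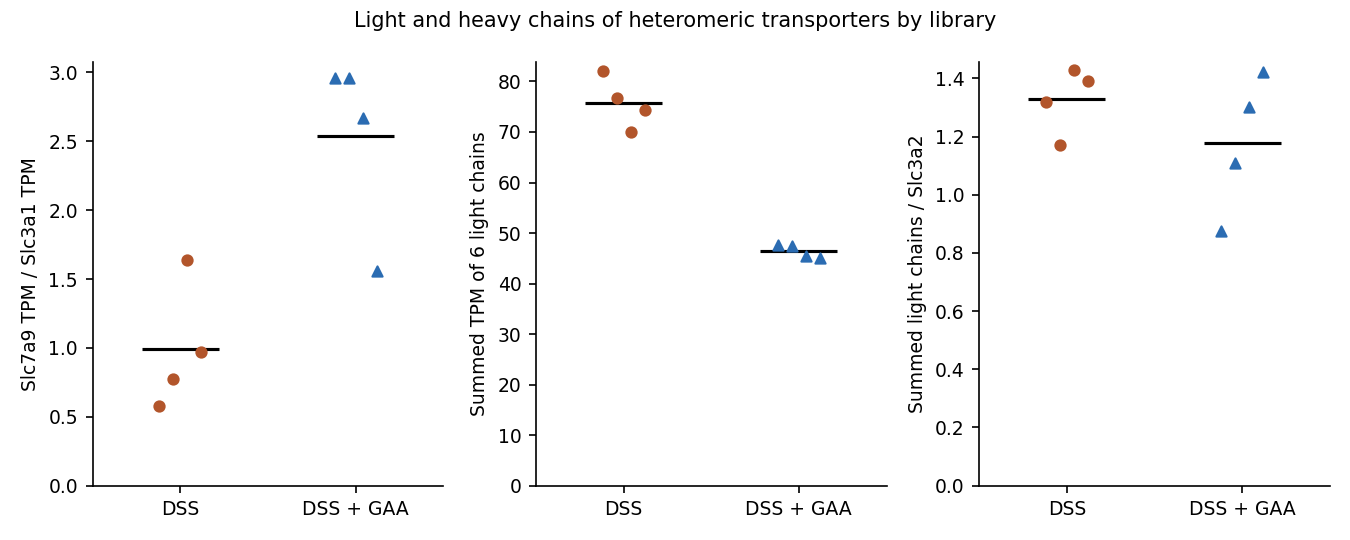
Light chains of the heteromeric carriers against their heavy chains. The panels give, per library, the ratio of Slc7a9 to Slc3a1 TPM, the summed TPM of the 6 light chains of Slc3a2, and the ratio of that sum to Slc3a2, with points for the 4 DSS and 4 DSS + GAA libraries and lines at the means. The summed light chains have groups that do not overlap, and both ratios have groups that do.

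The summed level of the 6 light chains of Slc3a2 was 82.1, 76.7, 70 and 74.4 TPM in DSS and 47.7, 47.5, 45.4 and 45.1 TPM in DSS + GAA. The ranges did not overlap and the DSS + GAA libraries lay within a narrow range. Set against Slc3a2 itself, the ratio was 1.33 ± 0.115 in DSS and 1.17 ± 0.237 in DSS + GAA, with overlapping libraries. Among them, Slc7a6 (y+LAT2, an exchanger of arginine and glutamine) was at 17.6, 14.6, 13.6 and 14.8 TPM in DSS and 7.87, 6.44, 4.71 and 4.01 TPM in DSS + GAA. Its log2 change was -1.29 ± 0.20 with an adjusted limma p of 0.00531, and no library of the groups overlapped. Slc7a8 (LAT2, a neutral amino acid exchanger) was at 16.3, 17.4, 11.8 and 22.0 TPM in DSS and 8.94, 7.89, 6.17 and 6.67 TPM in DSS + GAA. All DSS libraries were higher, and the log2 change was -1.07 ± 0.20 with an adjusted limma p of 0.00681. Slc7a5 (LAT1), which imports leucine and other large neutral amino acids, went from 7.29 ± 1.42 to 3.88 ± 1.18 TPM, a log2 change of -0.78 with an adjusted limma p of 0.0212, which rose to as much as 0.285 across the alternatives. The call was lost under all 3 rescalings and when DSS replicate 1 or 2 or DSS + GAA replicate 2 was left out. Slc7a7 (y+LAT1), the basolateral partner of Slc3a2 in epithelium, was 27.3 ± 3.24 TPM in DSS and 27.5 ± 1.59 TPM in DSS + GAA and did not pass. Slc7a10 (Asc-1) was under the filter.

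The cationic and orphan Slc7 members were low. Slc7a1 (CAT1), a housekeeping arginine carrier, fell from 11.2 ± 2.35 to 6.43 ± 1.68 TPM, a log2 change of -0.72 with an adjusted limma p of 0.0279, and the call was lost under the 3 rescalings and when DSS replicate 1, 2 or 4 or DSS + GAA replicate 2 was left out. Slc7a2 (CAT2), an arginine carrier of activated macrophages and liver, was at 5.56, 2.98, 2.88 and 3.01 TPM in DSS and 2.08, 1.15, 0.714 and 0.495 TPM in DSS + GAA. DSS replicate 1 stood above the other DSS libraries and no library overlapped. The log2 change was -1.14 ± 0.27, with an adjusted limma p of 0.0132. Slc7a14 (chromosome 3, 31202858 to 31310378, minus strand), a lysosomal member of the cationic branch that is found in neurons, was at 11.2, 9.41, 7.79 and 10.6 TPM in DSS and 4.90, 2.93, 2.06 and 1.56 TPM in DSS + GAA. No library overlapped, and the log2 change was -1.54 ± 0.26 with an adjusted limma p of 0.00587. Slc7a6os, the non-carrier row, was 48.6 ± 1.69 TPM in DSS and 38.1 ± 6.25 TPM in DSS + GAA, did not pass, and had the highest mean of the Slc7 rows over all 8 libraries. Slc7a4, an orphan member, was 1.80 ± 0.533 and 2.00 ± 0.589 TPM and did not pass, and Slc7a3 and Slc7a15 were under the filter.

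In Slc6, the serotonin transporter Slc6a4 (SERT, chromosome 11, 76998603 to 77032340, plus strand) rose. Its level was 8.77, 6.99, 12.3 and 20.3 TPM in DSS and 23.96, 30.9, 30.1 and 40.1 TPM in DSS + GAA. All DSS + GAA libraries were above all DSS libraries, although the highest DSS library, replicate 5, came near. The mean was 2.59-fold higher, with a log2 change of 1.38 ± 0.29 and an adjusted limma p of 0.00976. Tph1, which makes serotonin in enteroendocrine cells, is no member and was chosen after its values were seen, fell from 32.6 ± 16.7 to 9.24 ± 3.72 TPM, with an adjusted limma p of 0.00932. Enteroendocrine markers, a list that includes Tph1, had 1 of 8 higher and 4 lower, with sums of 619 to 876 TPM without GAA and 428 to 797 TPM with GAA, and their part in the Slc6a4 and Tph1 values was not tested.

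Slc6a6 (chromosome 6, 91684053 to 91759066, plus strand), the taurine transporter, was at 87.9, 66.3, 52.6 and 73.9 TPM in DSS and 26.2, 30.6, 34.6 and 40.5 TPM in DSS + GAA. The highest DSS + GAA library was below the lowest DSS library. Its log2 change was -1.06 ± 0.18 with an adjusted limma p of 0.00621. Slc6a15 (B0AT2, a neutral amino acid carrier of neurons) was at 5.88, 4.43, 4.79 and 5.25 TPM in DSS and 2.77, 1.27, 0.908 and 0.807 TPM in DSS + GAA. Every DSS library was higher, and the log2 change was -1.38 ± 0.24 with an adjusted limma p of 0.00621. Slc6a17, a synaptic vesicle carrier of neutral amino acids, fell from 4.45 ± 0.536 to 2.03 ± 0.963 TPM, a log2 change of -0.90 with an adjusted limma p of 0.0183, and lost the call under the 3 rescalings and without DSS replicate 1.

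Markers of enteric neurons moved with Slc6a15, Slc6a17 and Slc7a14. All 10 neuron markers fell, and their summed level was 921 to 1741 TPM without GAA and 173 to 516 TPM with GAA. Their part in the fall of the 3 carriers was not tested, and in bulk tissue fewer cells of a type cannot be told apart from less RNA per cell. Enteric glia markers had 4 of 6 tested lower, with sums of 156 to 194 and 131 to 152 TPM.

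Other Slc6 members did not pass. Slc6a20b was 44.7 TPM in DSS and 38.2 TPM in DSS + GAA on average, and 1800 bases of its exons are shared with Sacm1l on the opposite strand. Slc6a20a, its close copy 2.2 kb away, was 3.85 and 4.35 TPM, and reads of the pair could have been split between them. Slc6a7, the brain proline transporter, chosen after its values were seen, was at 2.84, 2.83, 3.22 and 3.71 TPM in DSS and 2.50, 6.47, 10.2 and 18.4 TPM in DSS + GAA. DSS + GAA replicate 1 was below every DSS library, and the adjusted limma p was 0.0877, although it passed without that library and with array quality weights. Slc6a9, a glycine transporter, had groups that did not overlap (8.87 and 6.77 TPM on average), an adjusted limma p of 0.0883, and 1429 bases of its exons shared with Ccdc24. The GABA carriers Slc6a11, Slc6a12 and Slc6a13, the noradrenaline carrier Slc6a2, the dopamine carrier Slc6a3, the glycine carrier Slc6a5, the apical neutral carrier Slc6a19 and Slc6a21 were under the filter.

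The glutamine carrier Slc38a2 (SNAT2, chromosome 15, 96687392 to 96699730, minus strand) was the most abundant Slc38 member. Its level was 231, 192, 174 and 158 TPM in DSS and 87.9, 112, 133 and 129 TPM in DSS + GAA. All DSS libraries were higher. The log2 change was -0.71 ± 0.17 with an adjusted limma p of 0.0144, which rose to as much as 0.0837 and was lost under trimmed mean scaling, median centring and without DSS replicate 1. Its share of the summed TPM of all members but Slc7a6os was 11.6% ± 2.24 in DSS and 6.90% ± 0.996 in DSS + GAA. Slc38a1 (SNAT1), 44.5 kb away, also fell, from 29.2 ± 4.05 to 15.2 ± 2.82 TPM, without overlap. Its log2 change was -0.91 and its adjusted limma p 0.00628, and it kept the call in every alternative run. Slc38a4, a carrier of neutral and cationic amino acids, was at 3.46, 1.99, 1.80 and 2.06 TPM in DSS and 0.641, 0.394, 0.268 and 0.232 TPM in DSS + GAA. It was the only tested member with no DSS + GAA library at 1 TPM, so it passed the filter through the DSS libraries alone, which by itself sets the groups apart. Its values are therefore a description, and no p is given. Slc38a9, the lysosomal arginine sensor of the mTORC1 pathway, fell from 5.10 ± 1.43 to 2.27 ± 0.871 TPM, a log2 change of -0.91 with an adjusted limma p of 0.0193, and was lost under the 3 rescalings and without DSS replicate 1. Slc38a6 (4.46 and 4.75 TPM), Slc38a7 (8.75 and 6.90 TPM) and Slc38a10 (19.7 and 22.1 TPM, in DSS and DSS + GAA) did not pass, although Slc38a10 passed as higher under the 3 rescalings. Slc38a3, Slc38a5, Slc38a8 and Slc38a11 were under the filter.

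Of Slc1, Slc1a5 (ASCT2), a sodium-coupled exchanger of glutamine and other neutral amino acids, was at 74.1, 78.4, 72.5 and 77.5 TPM in DSS and 56.6, 90.6, 108 and 121 TPM in DSS + GAA. The DSS libraries were close together and DSS + GAA replicate 1 was lower than all of them, while replicates 2, 4 and 5 were higher. The adjusted limma p was 0.373, and Slc1a5 passed without DSS + GAA replicate 1. Slc1a1 (EAAC1), an epithelial glutamate carrier, was 50.4 ± 13.5 TPM in DSS and 43.7 ± 20.3 TPM in DSS + GAA and did not pass. Slc1a4 (ASCT1), a neutral amino acid exchanger, fell from 7.31 ± 2.34 to 3.90 ± 0.45 TPM, a log2 change of -0.72 with an adjusted limma p of 0.0298, and the call was lost under all 3 rescalings and on leaving out 1 of DSS replicates 1 and 4 or of DSS + GAA replicates 2 and 5. Slc1a3, a glial glutamate carrier, was 1.70 ± 0.68 and 0.821 ± 0.32 TPM and did not pass, and Slc1a2, Slc1a6 and Slc1a7 were under the filter.

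All 3 Slc43 members fell. Slc43a3 (chromosome 2, 84936579 to 84958509, plus strand), an equilibrative purine base carrier related to the amino acid carriers of this family, was at 141, 155, 79.1 and 102 TPM in DSS and 69.99, 43.7, 20.6 and 21.4 TPM in DSS + GAA. The lowest DSS library was above the highest DSS + GAA library, replicate 1, and both groups were widely spread. The fitted log2 change was -1.72 ± 0.39 with an adjusted limma p of 0.012. Endothelial markers had 5 of 8 lower, with sums of 105 to 176 TPM without GAA and 25.4 to 104 TPM with GAA, and their part in the Slc43a3 value was not tested. Slc43a1 (LAT3), a carrier of leucine and other large neutral amino acids, fell from a mean of 4.31 ± 0.806 to one of 2.27 ± 0.744 TPM, a log2 change of -0.71 with an adjusted limma p of 0.0253. Its close relative Slc43a2 (LAT4) fell from 7.81 ± 1.33 to 3.88 ± 1.58 TPM, a log2 change of -0.90 with an adjusted limma p of 0.0202. Both calls were lost under the 3 rescalings and without DSS replicate 1, and that of Slc43a1 also on leaving out 1 of DSS replicates 2 and 5 or of DSS + GAA replicates 2, 4 and 5.

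**Figure D4:**
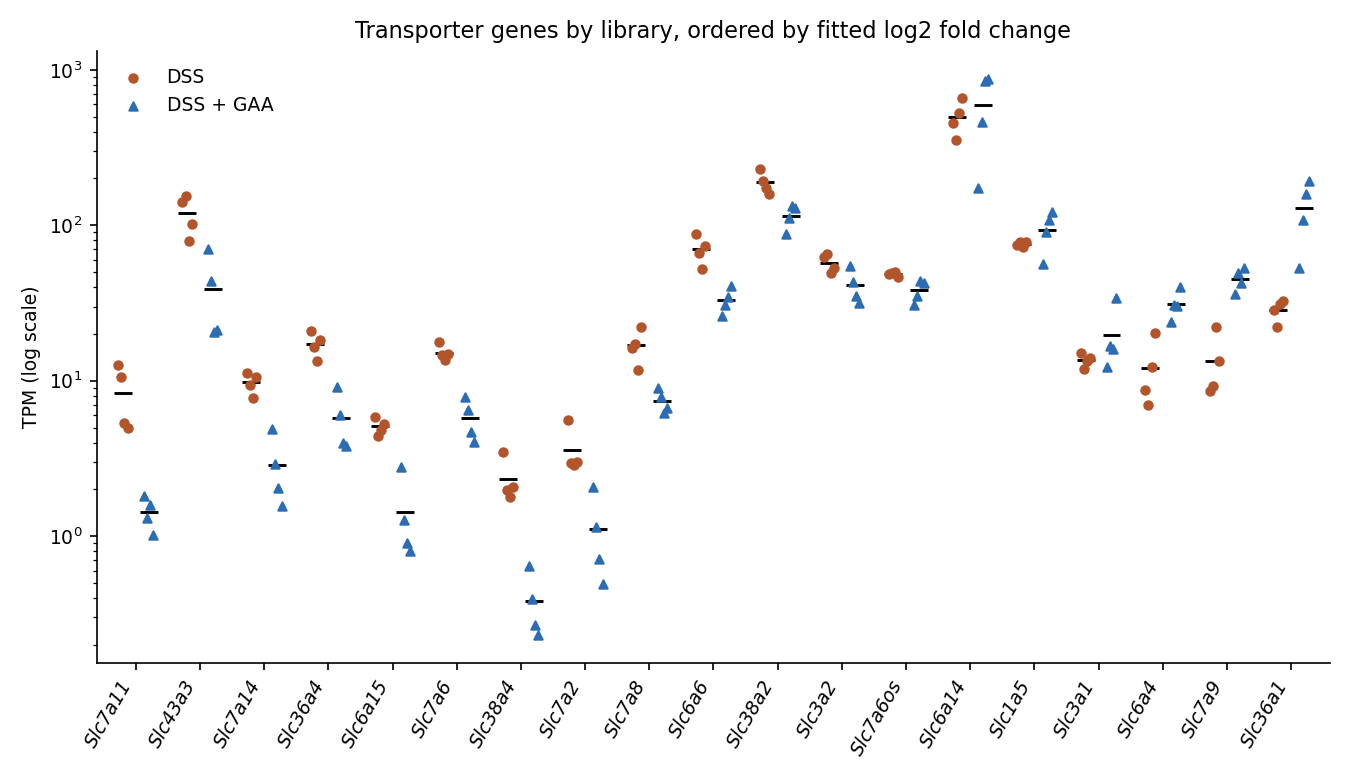
TPM in each of the 8 libraries of the members that passed with a log2 change of at least 1 in size. The highest-mean row of each family and both heavy chains are also shown. The Slc7 row taken by its mean is Slc7a6os, which is no transporter, and Slc6a8 is not shown. Points are libraries on a log axis, coloured by group, in order of fold change, and lines are group means. Slc6a4, Slc7a9 and Slc36a1 at the right lie higher in every DSS + GAA library, and the Slc6a14 groups overlap. The 10 members at the left lie lower in every DSS + GAA library. Among them, Slc38a4 entered the test through its DSS libraries alone, which by itself sets its groups apart.

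Exons of several members lie opposite exons of other genes, and without the strand their reads cannot be told apart. Beside those given above, the shared bases were 2631 for Slc1a1 with 4430402I18Rik, 922 for Slc43a2 with Gm45606, 635 for Slc7a2 with Gm26584, 554 for Slc7a4 with P2rx6, 367 for Slc38a10 with Gm11769, 232 for Slc7a7 with Oxa1l, 182 for Slc38a9 with Gm47827 and 117 for Slc6a6 with Gm44981.

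Other motifs were searched in the same windows, on both strands, 250 bases before the start. The antioxidant response element, TGACNNNGC, was in 10.2% of all windows and in 8 of the 66 windows of members, from 7 members, 4 of which fell (Slc38a2, Slc43a1, Slc7a1 and Slc7a6). The AP-1 element, TGANTCA, was in 6.75% of all windows and in 9 of the 66, from 8 members, 2 of which fell. The ROR elements TAGGTCA and TGGGTCA were in 2.23% and 3.24% of all windows, the first with 0 members and the second with Slc1a1 and Slc3a2. A match is only a run of letters, and a window without one says nothing of the factor.

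The 21 members under the filter were all low: the highest single value was 1.63 TPM, in Slc1a7 of DSS replicate 1, and 9 had a value of 0 in at least 1 library. Of the 21, 16 had a lower mean in DSS + GAA. In 4 of them, Slc1a2, Slc36a2, Slc6a2 and Slc6a12, every DSS + GAA library lay below every DSS library, beside 24.8% of all 18262 listed genes. The tested members were those above a low level in 4 or more libraries, so the counts above describe the higher carriers only.

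Markers of other cell types also differed between the groups. Neutrophil markers had 8 of 10 lower, with sums of 2147 to 6514 TPM without GAA and 198 to 719 TPM with GAA. Fibroblast markers had 4 of 8 lower, with sums of 1495 to 4580 and 350 to 1256 TPM. T and NK cell markers had 7 of 9 higher, with sums of 60.4 to 79.9 and 115 to 293 TPM. Macrophage markers had 2 of 8 lower, goblet cell markers 2 of 7 higher, erythroid markers 5 of 5 lower, adipocyte markers 1 of 3 lower, and smooth muscle markers had 0 of 8 that passed limma's test, adjusted or unadjusted. Colonocyte markers had 5 of 10 higher and 1 lower, and small intestinal enterocyte markers had 2 of 5 tested higher and 1 lower, with sums of 258 to 465 and 486 to 634 TPM. No marker of these lists was at 0 in all libraries. How much these shifts bear on Slc7a9, Slc36a1, Slc6a4, Slc6a8 or the fallers was not tested.

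Genes of the amino acid pathways outside the 7 families mostly did not pass. Of the ATF4 and amino acid response genes, 8 of 27 rows fell and 1 rose, with a median log2 change of -0.29 beside -0.25 for all tested genes. Eif4ebp1, a translation repressor, fell from 32.9 ± 5.96 to 13.1 ± 3.69 TPM with an adjusted limma p of 0.00541. Asns, the asparagine synthetase, fell from 71.6 ± 13.8 to 37.2 ± 2.17 TPM with an adjusted limma p of 0.00554. Cth, which makes cysteine by transsulfuration, rose from 17.2 ± 5.57 to 53.5 ± 15.7 TPM with an adjusted limma p of 0.00553. In the same libraries the cystine carrier Slc7a11 fell and the cystine carrier Slc7a9 rose, and any relation of Cth to them was not tested. Atf4 itself, chosen after its values were seen, was 254 ± 38.4 and 193 ± 21.1 TPM and did not pass.

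Of the 34 genes of mTORC1 amino acid sensing, 12 fell, and 5 fell under trimmed mean scaling and 5 without DSS replicate 1. The shares of all tested genes that fell were 28.2%, 12.8% and 12.0% in these fits, so the list was near them, and the counts of the other lists are to be read against the same shares. The leucine-sensing relative Sesn1 fell from 40.9 ± 13.3 to 11.6 ± 2.32 TPM (adjusted limma p 0.00531), Fnip1 from 29.0 ± 4.81 to 15.5 ± 1.65 TPM, and the Rag GTPase gene Rragd from 4.58 ± 1.53 to 1.30 ± 0.609 TPM, and these 3 calls held in every alternative that tested them. Of 20 tRNA synthetases, 4 fell and 2 rose, and 0 fell under trimmed mean scaling by limma's adjusted p. Mars1 fell from 29.4 ± 2.28 to 19.9 ± 1.7 TPM and Hars from 70.1 ± 7.97 to 46.1 ± 6.58 TPM, calls lost under trimmed mean scaling and median centring. Wars1, which interferons induce, rose from 164 ± 49.9 to 444 ± 219 TPM (adjusted limma p 0.0219), a call lost when DSS replicate 1, 2 or 4 or DSS + GAA replicate 2 was left out. Of 17 glutamine, glutamate and branched-chain enzymes, 7 fell and 1 rose, and 1 fell under trimmed mean scaling, where Glud1 (122 and 88.7 TPM) and Oat (199 and 131 TPM) lost their calls. Of 9 glutathione genes, Gpx4 fell from 155 ± 17.2 to 106 ± 7.75 TPM, a call lost under trimmed mean scaling, Cth rose, and Gclc (114 and 71.3 TPM) was among those that did not pass. Of 17 other amino acid and peptide carriers, 4 fell, with Slc15a3 (17.6 and 7.14 TPM) and Slc25a29 (2.42 and 1.41 TPM) among them, and 1 rose. Slc15a3 and Slc25a29 lost their calls under all 3 rescalings and when DSS replicate 1, 2 or 4 or DSS + GAA replicate 4 was left out. Slc25a29 kept its call in only 8 of 19 alternatives. The riser was Slc15a1, the peptide carrier PepT1, chosen after its values were seen, at 84.3 and 161 TPM, with an adjusted limma p of 0.0471 that did not pass in 10 of 20 alternatives. Of 7 partner proteins of the carriers, 2 rose and 2 fell. Ace rose from 17.5 ± 1.79 to 27.0 ± 0.846 TPM. Itgb1 (743 and 386 TPM) and Cd44, a partner of Slc7a11 (59.3 and 25.6 TPM), fell, and both lost their calls under trimmed mean scaling, under median centring, and on leaving out either DSS replicate 1 or DSS + GAA replicate 4. Cd44 also lost it under quantile normalization and without DSS replicate 2.

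The authors' deposited table of fold changes called 8 members higher and 19 lower at its false discovery rate of 0.05, beside 10.3% and 16.2% of all listed genes. Of these, the 4 risers here and 12 of the fallers were called in both. Slc3a1 and Slc6a7, which did not pass here, were higher in the authors' deposited table, at false discovery rates of 0.0253 and 5.81e-08. The 7 members that fell here and did not pass in the authors' deposited table were Slc1a4, Slc7a1, Slc7a5, Slc38a1, Slc38a2, Slc43a1 and Slc43a2. The authors' deposited table called 9 members that were under the filter here, 2 higher and 7 lower. The log2 fold change in the authors' deposited table was -2.54 for Slc7a11 and 2.17 for Slc36a1.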

How the data were processed

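RNA of colon from 8 libraries was measured. TRIzol extraction, DNase I, oligo(dT) selection and paired-end MGI-T7 sequencing were used, per the labels' protocols, which do not state whether strand was kept. Build mm10 and the tools Bowtie2, edgeR, featureCounts, GATK, HISAT2, SAMtools, Subread and Trimmomatic are named, without versions or roles, per the submitters' processing notes. The authors deposited TPM per gene and library (length-normalised and summing to 1000000 in each), and in the same table each gene's log2 fold change with its p-value and q-value (false discovery rate), from a test not given in the sources used here. These deposited comparisons were set beside the fits made here, and nothing else was taken from them.

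TPM + 1 (a pseudocount of 1) was log2-transformed, genes with at least 1 TPM in at least 4 libraries were kept, and limma 3.58.1 (R 4.3.3) with a variance trend and robust empirical Bayes was fitted with group as the sole term. P-values were adjusted by Benjamini and Hochberg over all 14217 tested genes, and single values were also tested by an exact two-sided permutation test over 70 assignments. The fit was tested on simulated data. Depth is unknown because TPM keeps none, so no interval or floor is given. Shared replicate numbers were checked: the correlations of the deviations of same-numbered libraries were 0.18, -0.11, 0.15 and -0.03, so the numbers were not used to pair. All members enter the counts. Given by library were those that passed with a log2 change of at least 1 in size, the highest-mean member of each family and both heavy chains. Of each pathway list the 3 genes with the smallest p were named. Some genes that these rules take are not reported here. The members, the 7 pathway and 14 marker lists were chosen with earlier results of these data known. Coordinates are GENCODE vM21 on GRCm38 (60 of 60 members matched) and promoter windows are RefSeq on GRCm38.p6. Alternatives changed the pseudocount, filter, scaling, fit, replicate block or libraries, 20 in all.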

Additional observations from a re-analysis of the deposited data

Results flagged for a closer look

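A library that lay apart from the other libraries of its group was looked for in 78 groups of 4, by whether its gap to the nearest of the others was over Dixon's 95% critical value for 4 libraries, as a share of the whole range. Gaps and ranges were taken on the log2(TPM + 1) scale. About 1 in 20 groups would be marked by chance. Slc7a2, an arginine carrier, was marked for DSS replicate 1, which was 5.56 TPM against 2.88 to 3.01 TPM in the other DSS libraries. On the log2 scale the gap was 0.938 of the range. Slc38a7, a lysosomal glutamine carrier, was marked for DSS replicate 2, which was 6.24 TPM against 9.32 to 9.85 TPM. On the log2 scale the gap was 0.876 of the range. Slc38a7 did not pass with all libraries (adjusted limma p 0.199) and passed without DSS replicate 2.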

How the results depend on the processing

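Of the 23 carriers that passed, 14 kept their call in every one of the 20 alternatives that tested them, 9 lost it in at least 1 and none reversed. The 14 were Slc6a4, Slc6a6, Slc6a15, Slc7a2, Slc7a6, Slc7a8, Slc7a9, Slc7a11, Slc7a14, Slc36a1, Slc36a4, Slc38a1, Slc38a4 and Slc43a3, or 13 of 22 without Slc38a4. The number of carriers that fell was 19, and it was 11 with a filter at 5 TPM, which tests fewer members, 11 under trimmed mean scaling, 12 under quantile normalization and 11 under median centring. Leaving out 1 library gave between 10 (without DSS replicate 1) and 21, and Slc38a4 was not tested when a DSS library was left out. Under these 3 scalings 5 carriers rose, so the split of passed carriers was 11 lower and 5 higher under trimmed mean scaling, against 19 and 4. Over all genes, 847 rose and 4006 fell, and the numbers were 1805 and 1820 under trimmed mean scaling, 1677 and 1601 under quantile normalization, and 2165 and 1308 under median centring. Leaving out 1 library gave 361 to 1277 higher and 1676 to 4435 lower genes, with the lowest of both without DSS replicate 1. The cause of the shifts with scaling was not tested. With the replicate block, 4 carriers rose and 18 fell, as Slc7a1 and Slc7a5 were lost and Slc3a2 passed, and 679 genes rose and 3340 fell in all.

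Carriers whose log2 value changed sign had not passed. Under quantile normalization, the values were 0.0485 for Slc6a9, -0.0564 for Slc6a14, 0.304 for Slc6a20a and 0.106 for Slc38a7. Under median centring, they were 0.000558 for Slc1a1, 0.212 for Slc6a20a, 0.0732 for Slc6a20b and 0.0174 for Slc38a7, and under trimmed mean scaling 0.113 for Slc6a20a and 0.0338 for Slc6a20b. Slc6a20a was 0.0221 with a pseudocount of 5 and 0.108 with array quality weights, and Slc7a7 was -0.0267 with array quality weights and -0.00702 without mitochondrial and haemoglobin genes. Leaving out single libraries gave ranges of -0.513 to 0.0301 for Slc1a1, -0.248 to 0.527 for Slc6a14, -0.354 to 0.426 for Slc6a20a, -0.0419 to 0.203 for Slc7a4, -0.0232 to 0.0943 for Slc7a7 and -0.052 to 0.181 for Slc38a6. Depth could not be used to set limits, since TPM keeps none.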
